A study of Mus musculus with 6 samples.

Results

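Ly6a/Spon2/Ccl11 adventitial fibroblasts are a set of cells in single-cell RNA sequencing data from mouse aortic root and ascending aorta. They were chosen by a gate on transcript counts. A cell had to pass the quality filter, hold at least 20 UMIs of Dcn and fewer than 5 of Myh11 per 10000 UMIs, hold a UMI of at least 4 of 8 positive genes (Ly6a, Spon2, Ccl11, Tmem100, Ebf2, Has1, Tnfaip6 and Gfpt2) and hold a UMI of at most 2 of 8 negative genes (Hhip, Pex5l, Dio2, Cpxm2, Hsd11b1, Chad, Comp and Cilp2). A UMI is a counted transcript molecule. The gate took 2856 cells, called gated fibroblasts here, out of 13043 cells under the Dcn and Myh11 limits and 24972 cells of the whole series. The remaining 10187 cells under the same limits are called other fibroblasts.

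The cells came from 6 female mice aged 16 weeks on the 129SVE background. Control mice numbered 4 and carried wild-type Tgfbr1, while the 2 LDS mice were Tgfbr1 M318R/+, a heterozygous missense allele used as a model of Loeys-Dietz syndrome. By the labels, 2 of the controls also carried Wnt2CRE and the EGFP-L10a conditional tracer. The tissue was digested with collagenase and elastase and sorted for DCV+ PI- cells, so proportions describe cells that survived both steps. Each mouse gave 1 library, told apart by the number that ends the cell barcode, but no source used here pairs that number with a mouse. No library was therefore assigned a genotype, and no control and LDS cells were compared. Libraries 1 to 4 held 157 to 263 UMIs of the tracer GFP and libraries 5 and 6 held 8 and 6, which goes against labels that list the tracer in 2 mice. Library depth ranged from 18218282 to 38105145 UMIs, with medians of 5572 to 9838 UMIs per cell. Among all filtered cells, 76 barcode sequences occurred in more than 1 library, and 19 gated fibroblasts held one of them.

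The adventitia is the outer coat of an artery, where fibroblasts secrete collagen, microfibrils and proteoglycans, and where nerves, small vessels and immune cells also lie. In many mouse organs, fibroblasts around large vessels share a set of surface and secreted products, among them Pi16, Dpp4, Cd34, Cd248 and Ly6 proteins, and are commonly described as universal or adventitial fibroblasts. Such cells are known for making chemokines, complement and hyaluronan, a large sugar polymer that is built at the plasma membrane from nucleotide sugars.

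The share of gated fibroblasts among cells under the Dcn and Myh11 limits had a median of 20.1% over the 6 libraries. The lowest share was 10.6% in library 6 (91 of 862 cells, 95% exact binomial interval 8.59 to 12.8%) and the highest 31.7% in library 5 (628 of 1981 cells, 29.7 to 33.8%). Libraries 1, 2, 3 and 4 held 11.4%, 19.8%, 20.4% and 25.2%. The intervals, which cover counting error only, separated the low pair of libraries 1 and 6 from the other 4. Gated fibroblasts had a median of 6632 UMIs and other fibroblasts one of 5963. The median share was 10.7% when the gate was read from cells thinned to 3000 UMIs.

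**Figure D1:**
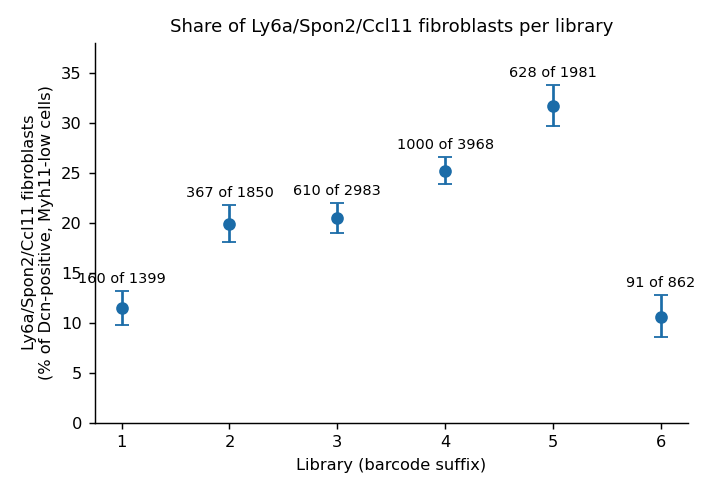
Share of Ly6a/Spon2/Ccl11 fibroblasts in percent of all Dcn-positive, Myh11-low cells (y axis) in each library (x axis), with 95% exact binomial intervals as bars and cell numbers above them. Libraries 6 and 1 sat lowest, at 10.6% and 11.4%, and library 5 highest, at 31.7%.

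Because the gate read measured values, the levels of its own genes are a description. Ly6a, a GPI-anchored surface protein also called Sca-1, had a UMI in 97.3% of gated and 42.0% of other fibroblasts. Gfpt2, the first enzyme of the hexosamine pathway that feeds hyaluronan synthesis, had one in 92.1% and 31.0%. Ccl11, the eotaxin chemokine, was the least frequent positive gene, with 21.4% and 4.26%. Each gate gene was also compared with a gate that did not read it. All 8 positive genes were then higher than in other fibroblasts in all 6 libraries, from a median log2 ratio of 1.63 for Ccl11 to 2.84 for Tmem100. All 8 negative genes were lower in all 6 libraries, from -2.32 for Comp, a cartilage matrix protein, to -6.10 for Cilp2. Of all cells under the limits, the share with 3 or more negative genes was 45.5% with 0 positive genes, 39.7% with 1, 26.5% with 2, 13.3% with 3, 5.43% with 4 and 2.30% with 5. The gate genes were chosen with earlier results of these data known, so these directions and shares are not an independent check of the gate.

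For all other genes, UMIs were summed over the gated and over the other fibroblasts of each library and expressed per 1000000 UMIs of that sum (CPM). CPM counts 3' ends, so it was not divided by transcript length, and levels are compared for a gene between cells and not between genes. The log2 ratio of gated over other fibroblasts was taken within each library, and its median over 6 libraries is given. A gene was called higher or lower where the ratio had the same sign in all 6 libraries and a median of at least 2-fold. Of 8108 genes counted, 192 were called higher (2.37%) and 260 lower (3.21%), while the median over all counted genes was 0.02. The gate was cut from the same cells, so the calls are a description and carry no test.

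The label was compared with lists that the gate did not read. These lists were chosen with earlier results of these data known, so the comparison is not an independent check. All 12 pan-fibroblast genes were counted, 2 of them being called higher and 1 lower. Without regard to size, 6 were higher and 3 lower in all 6 libraries. Their summed level had a median of 48369 CPM (34573 to 54638) in gated and 37665 CPM (31258 to 39053) in other fibroblasts. Col1a1, the main chain of type I collagen, ranged from 1933 to 2629 CPM in gated fibroblasts (median 2435) and from 2681 to 6446 CPM in other fibroblasts (median 3506). Its ratio was below 0 in all 6 libraries (median -0.66) and stayed under the 2-fold limit. The gated cells therefore held Col1a1 transcript, at a lower level than other fibroblasts of each library, while the list as a sum had a higher median. Of the 25 universal adventitial fibroblast genes, 18 were called higher and none lower, with a list median of 1.67.

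Pi16, a secreted peptidase inhibitor that marks universal fibroblasts, ranged from 2771 to 4772 CPM in gated fibroblasts (median 3964) and from 857 to 1250 CPM in other fibroblasts (median 999). The ranges did not overlap, which held for 9.57% of all counted genes, and the median log2 ratio was 1.83 (1.62 to 2.46). Dpp4, the CD26 surface peptidase, ranged from 13.5 to 64.8 CPM (median 30.5) against 0 to 2.11 CPM (median 0.631). Every library of gated fibroblasts was above every library of other fibroblasts, and the median log2 ratio was 5.08 (3.54 to 7.97). Ly6c1, another Ly6 surface protein, ranged from 551 to 1050 CPM (median 757) against 39.5 to 139 CPM (median 97.9), a log2 ratio of 2.76. Ly6c1 has near-identical neighbours in the Ly6 family, so its count may share reads with them. Cd248, the surface glycoprotein endosialin, ranged from 142 to 289 CPM (median 196) against 23.3 to 41.8 CPM (median 29.8), again without overlap.

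In single cells, Pi16 had a UMI in 95.3% of gated and 79.9% of other fibroblasts, so it did not separate them by presence. Ly6c1 had one in 76.6% and 18.9%, and Cd248 in 48.7% and 13.2%. After thinning every cell to 3000 UMIs, the values were 65.7% and 13.4% for Ly6c1 and 31.0% and 6.73% for Cd248. Cells below both limits that held at least 3 leukocyte markers were used to estimate the level of free RNA. Their thinned counts were 6 of 399 cells for Ly6c1 and 0 of 399 cells for Cd248, which allows a share of up to 0.920% by the exact binomial interval. Dpp4 was found in 10.3% of gated fibroblasts and 0.471% of other fibroblasts. The leukocyte-marker cells held Dpp4 in 4.75%, and Dpp4 is also known as a lymphocyte surface protein, while cells with high Myh11 and low Dcn held it in 0.0693%.

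Other surface and secreted members of the adventitial list showed the same direction. Cd55, which protects cells from complement, had a log2 ratio of 2.13. Sema3c, a secreted guidance factor, stood at 211 against 51.7 CPM, Igfbp6 had a ratio of 1.67 and Cd34, a sialomucin of stem and stromal cells, 1.10. Efemp1 and Fbn1, extracellular proteins of microfibrils, had 1.71 and 1.65. Fn1, fibronectin, had 1.63, but its gated range of 203 to 592 CPM overlapped the other range of 102 to 226 CPM. Smpd3, a neutral sphingomyelinase, varied most between libraries, from 10.8 to 277 CPM in gated fibroblasts, and its log2 ratio was 0.06 in library 5 and 4.80 in library 6. Col15a1, which marks a second kind of universal fibroblast, was not higher (median -0.01, above 0 in 2 of 6 libraries), and Limch1 was lower in all 6 (median -0.13).

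The largest median ratio belonged to Mrgprg, an orphan G protein-coupled receptor, at 5.41. It rested on few cells, since 58 gated fibroblasts (2.03%) and 9 other fibroblasts (0.0883%) held a UMI, and library 6 alone stood at 120 CPM while library 5 stood at 0.501. Duoxa1, a maturation factor of dual oxidase, ranged from 17.8 to 43.6 CPM (median 23.5) against 0.127 to 1.68 CPM (median 0.909). Cadm3, an adhesion molecule best known from nerve, ranged from 41.6 to 102 CPM (median 66.3) against 2.95 to 8.41 CPM (median 4.03). For both genes no library of other fibroblasts reached the lowest library of gated fibroblasts. Stmn4 and Basp1, also known mainly from neurons, had log2 ratios of 3.90 and 3.33. Efhd1, a calcium-binding mitochondrial protein, had 3.30, Pla1a, a phosphatidylserine lipase, 3.40, and Adgrd1, an adhesion receptor, 2.94.

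**Figure D2:**
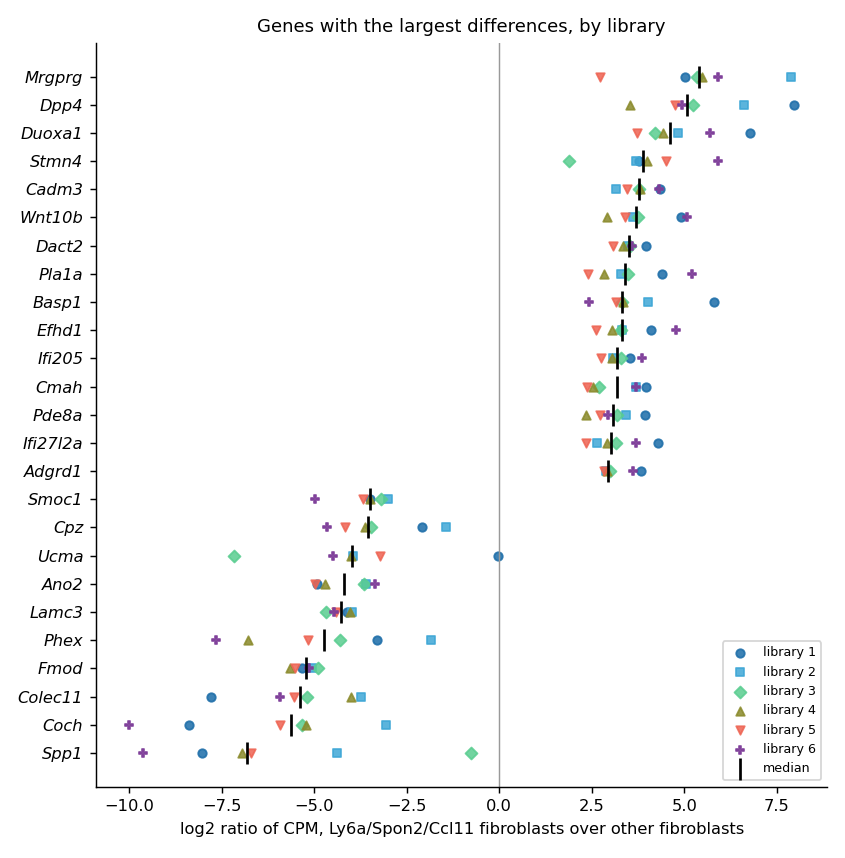
Log2 ratio of CPM in gated over other fibroblasts (x axis) for the top 15 genes called higher and the bottom 10 called lower, ranked by median (y axis), with a symbol per library and a black bar at the median. All points of a gene lie on the same side of 0, from Mrgprg at a median of 5.41 to Spp1 at -6.83, and the spread between libraries is widest for genes near 0 CPM in either set.

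Ligands of the Wnt family and their regulators were divided. Wnt ligands are secreted lipoproteins that act on Frizzled receptors of nearby cells. Wnt10b ranged from 19.8 to 56.9 CPM in gated fibroblasts (median 31.6) and from 0.856 to 2.85 CPM in other fibroblasts (median 2.24). Wnt2 ranged from 18.8 to 70.7 CPM (median 24.8) against 3.90 to 16.6 CPM (median 5.52). These 2 ligands were the only called-higher members among 21 counted genes of the Wnt list, and neither range overlapped. Dact2, an intracellular inhibitor of Wnt and TGF-beta signaling that was counted in the adventitial list, had a log2 ratio of 3.51. Called lower were Wnt5a (-1.02), Dkk3 (-1.43) and the secreted Wnt-binding proteins Frzb (-1.65) and Wif1 (-3.02). Wif1 ranged from 13.8 to 36.1 CPM against 116 to 374 CPM.

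Of 13 counted genes of hyaluronan metabolism, 5 were called higher and none lower, with a list median of 0.73. Uap1 makes UDP-N-acetylglucosamine, a substrate of hyaluronan synthases. It ranged from 434 to 1695 CPM in gated fibroblasts (median 902) and from 79.6 to 233 CPM in other fibroblasts (median 138). The log2 ratio was 2.71 and varied little, from 2.32 to 2.94. Ugdh, which makes UDP-glucuronate, the other substrate, ranged from 337 to 650 CPM against 81.6 to 144 CPM (log2 ratio 2.05). Ugp2, which makes the UDP-glucose that Ugdh oxidizes, ranged from 406 to 650 CPM against 102 to 181 CPM (1.77). Transcripts of Uap1, Ugdh and Ugp2 were thus above every library of other fibroblasts. The gate read none of these, but it did read the hyaluronan genes Has1, Tnfaip6 and Gfpt2. The result is therefore not independent of the gate.

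Has2, a hyaluronan synthase not read by the gate, ranged from 27.6 to 79.2 CPM (median 51.5) against 5.33 to 15.5 CPM (median 10.9), a log2 ratio of 2.10. Ptx3, a pentraxin that crosslinks hyaluronan with the product of Tnfaip6, had 1.90, with libraries 4 and 5 at 928 and 692 CPM and the other 4 between 88.0 and 137 CPM. Gfpt1, the constitutive relative of the gate gene Gfpt2, differed little (0.12, 36.8 against 32.5 CPM). Cd44, the main hyaluronan receptor, was lower in all 6 libraries (-0.44), and Itih2, a chain of the hyaluronan-bound inter-alpha inhibitor, also (-0.94). Called genes of the list thus lay on its synthesis side and in Ptx3.

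**Figure D3:**
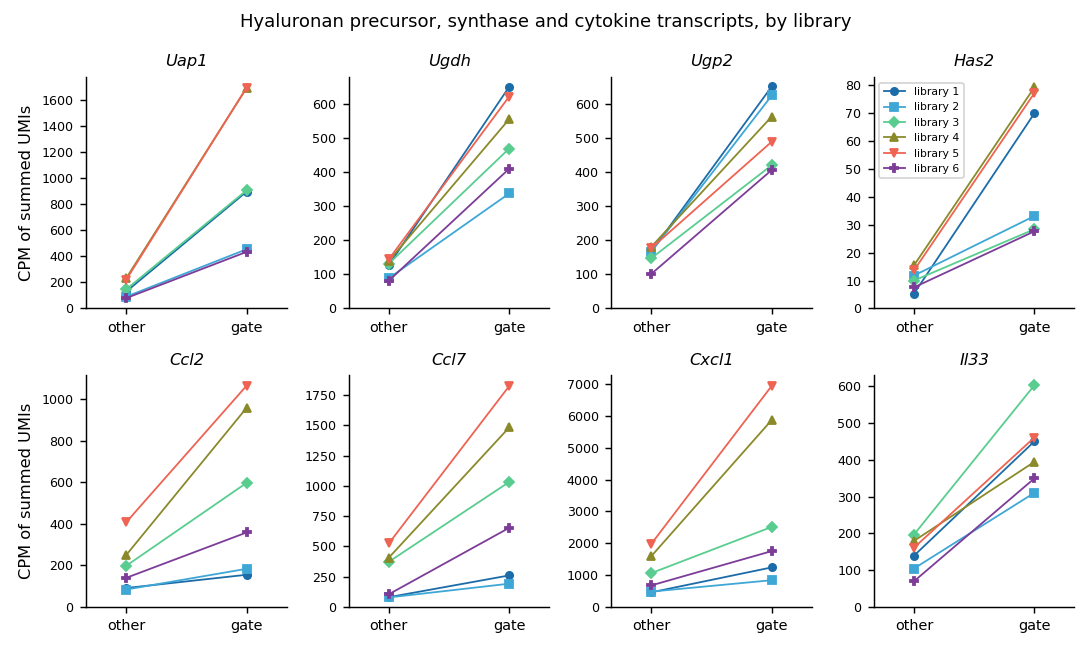
CPM of summed UMIs (y axis, from 0) in other and gated fibroblasts (x axis) for 4 genes of hyaluronan synthesis and 4 cytokines, with a line and symbol per library. Every line rises, and libraries 4 and 5 are highest for Uap1, Ccl2, Ccl7 and Cxcl1.

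Of 14 counted chemokines and cytokines, 6 were called higher and 1 lower, with a list median of 1.09. Ccl2, Ccl7 and Ccl8 attract monocytes and lie beside the gate gene Ccl11 on chromosome 11 (mm10, chr11:82035571-82116799 from Ccl2 to Ccl8). Ccl7 ranged from 191 to 1826 CPM in gated fibroblasts (median 843) and from 77.5 to 525 CPM in other fibroblasts (median 238). These ranges overlapped, with libraries 1 and 2 lowest in both sets, and the log2 ratio lay between 1.30 and 2.65 in every library. Ccl2 had a median ratio of 1.37 and Ccl8, at 7.76 to 38.9 CPM, one of 2.76. Cxcl1, a neutrophil chemokine, ranged from 837 to 6954 CPM against 456 to 1986 CPM (1.41). Leukocyte-marker cells held Cxcl1 in 56.1% of thinned cells, against 66.5% of gated fibroblasts. Cells with high Myh11 and low Dcn held Cxcl1 in 5.10% after thinning. These sets therefore give no single level of free RNA for Cxcl1, and its presence was not read as expression. Whether leukocyte-marker cells make Cxcl1 themselves was not tested.

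Il33, an alarmin stored in stromal nuclei, ranged from 310 to 603 CPM against 69.6 to 197 CPM, without overlap (1.59). Tslp, a second cytokine of type 2 immunity, had 1.14. Cxcl14 had a median ratio of 2.58 but was not called, because library 1 went the other way (0.862 against 2.41 CPM). Cxcl12, a chemokine of stromal niches, was lower in all 6 libraries (-0.83, 625 against 1069 CPM), and Tnfsf13b, the B cell factor BAFF, was called lower (-1.40). The chemokine symbol Ccl19 is shared by several features, so it was not among the counted list members. An entry of Ccl19 was also called lower (-1.44). The chemokines therefore did not move as a block.

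Receptors for cytokines were called in both directions, with 3 higher and 3 lower of 19. Il6ra (2.35), Il17ra (1.07) and Il4ra (1.03) were higher, and Il11ra1 (-1.01), Lifr (-1.15) and Tnfrsf11b, the decoy receptor osteoprotegerin (-2.95), were lower. In the list of NF-kB and its feedback genes, 2 of 19 were called, namely Tnfaip2 (2.31) and Irak3 (1.65). Nfkbia, the inhibitor that NF-kB itself induces, stood at 751 CPM in gated and 732 CPM in other fibroblasts. In the complement list, C3 (1.55), C7 (1.61), Cd55 and C1qtnf1 (1.23) were called higher and Clu (-2.26) and C2 (-1.69) lower, out of 13.

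The interferon response list had 1 of 24 members called, Ifi27l2a, with a list median of 0.01. Ifi27l2a, a small interferon-inducible membrane protein, ranged from 406 to 1226 CPM in gated fibroblasts (median 867) and from 45.6 to 181 CPM in other fibroblasts (median 77.5), a log2 ratio of 3.03. Isg15 and Ifit3, standard interferon targets, had ratios of -0.05 and -0.26. A separate group lay on chromosome 1. Ifi207, Ifi204, Mndal, Ifi211, Ifi202b and Ifi205, sensors and regulators of the PYHIN (p200) family, are neighbours within chr1:173723427-174031810 (mm10) and were all called higher, with log2 ratios of 1.73, 1.91, 1.51, 2.81, 2.15 and 3.18. Ifi211 ranged from 27.9 to 153 CPM against 5.99 to 21.8 CPM, without overlap. These genes are close paralogs, so the split of reads among them is uncertain.

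Promoters are shown for those 4 of the 6 neighbours in which a match to an interferon-response core was found, Ifi204 and Ifi202b not being shown, and for Dpp4 and Cxcl1, which hold matches to other motifs. Sequences are from RefSeq (GRCm38.p6), 5' to 3' on the strand of the gene, and cover the 150 bases before an annotated start. Capitals mark a match to an interferon-response core (GAAA repeated after 2 bases of any kind) in the Ifi genes and Mndal, to an EBF motif (TCCC and GGGA, 2 bases apart) in Dpp4 and to a kB motif (GGGA and TTCC, 2 bases apart, with 2 overlapping matches on opposite strands) in Cxcl1.
Ifi207 (chr1:173741810-173741959, minus strand): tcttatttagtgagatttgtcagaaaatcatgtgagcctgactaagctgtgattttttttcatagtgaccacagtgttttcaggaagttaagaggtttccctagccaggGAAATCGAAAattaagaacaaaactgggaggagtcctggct
Mndal (chr1:173880188-173880337, minus strand): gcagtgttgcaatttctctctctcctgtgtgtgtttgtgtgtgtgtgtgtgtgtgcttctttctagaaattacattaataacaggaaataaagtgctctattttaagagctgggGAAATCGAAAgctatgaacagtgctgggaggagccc
Ifi211 (chr1:173913047-173913196, minus strand): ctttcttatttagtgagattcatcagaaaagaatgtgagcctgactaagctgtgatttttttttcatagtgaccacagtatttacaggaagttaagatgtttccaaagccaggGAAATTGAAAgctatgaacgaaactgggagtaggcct
Ifi205 (chr1:174031756-174031905, minus strand): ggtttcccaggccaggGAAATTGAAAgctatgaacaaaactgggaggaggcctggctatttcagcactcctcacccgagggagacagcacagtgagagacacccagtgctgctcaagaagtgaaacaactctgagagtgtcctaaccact
Dpp4 (chr2:62412232-62412381, minus strand): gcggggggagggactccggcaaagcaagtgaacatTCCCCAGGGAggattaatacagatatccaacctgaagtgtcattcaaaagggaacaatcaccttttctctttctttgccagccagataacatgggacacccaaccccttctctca
Cxcl1 (chr5:90891095-90891244, plus strand): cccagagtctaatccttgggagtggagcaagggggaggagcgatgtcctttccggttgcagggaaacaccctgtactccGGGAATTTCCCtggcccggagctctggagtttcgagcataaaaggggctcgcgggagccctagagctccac

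The match began 41 bases before the start in Ifi207, 36 in Mndal, 37 in Ifi211 and 134 in Ifi205. The Dpp4 promoter also held the interferon core, on the opposite strand and left in lower case above, 52 bases before the start. On both strands of the 250 bases before each start, the interferon core was found in 11 of 188 promoters of genes called higher (5.85%), in 2.95% of those of genes called lower, in 2.60% of promoters of counted genes and in 2.98% of all promoters. Of those 11 promoters, 5 belong to the chromosome 1 neighbours that prompted the search, Mndal giving 2. In the same order, the EBF motif was found in 2.66% (5 promoters), 0.422% (1 promoter), 0.888% and 0.779%. The kB motif was found in 1.60% (3 promoters), 0.422% (1 promoter), 1.23% and 1.21%. For both motifs, the shares among called genes rest on few promoters. The AP-1 motif (TGA and TCA, 1 base apart), the CRE motif (TGACGTCA) and the TATA box (letters TATAAA) were found in 6.91%, 1.06% and 8.51% of promoters of genes called higher, in 5.06%, 1.69% and 8.86% of those of genes called lower and in 4.21%, 2.70% and 6.44% of those of counted genes. The promoters belong to 140 of the 192 genes called higher, some genes have several, and a match is a description of letters only.

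Matrix genes were called in both directions. Of 24 counted genes of elastic fibres and microfibrils, 6 were called higher and 7 lower, with a list median of 0.04. Elastic fibres consist of a core of elastin laid on microfibrils of fibrillin. Among those called higher were Emilin2 at 57.3 to 122 CPM against 8.50 to 12.3 CPM (2.81), Fbn1 at 479 to 818 CPM against 163 to 246 CPM (1.65), Adamtsl4 (1.81) and Mfap5 (1.37). Among those called lower, Eln, tropoelastin, ranged from 181 to 521 CPM against 543 to 1360 CPM (-1.64), Lox, which crosslinks it, had -1.72, and Fbln5, which guides its assembly, -1.28. Mfap4 (-1.48), Ltbp2 (-1.04) and Adamtsl2 (-1.10), which are associated with microfibrils, and Fbln7 (-2.02) were also called lower, so genes of microfibrils were called in both directions.

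Basement membrane genes divided 4 and 4 among 19. Called higher were Lama4 (1.82), Lamb1 (1.51) and Lamc1 (1.78), an alpha, a beta and a gamma chain of laminin, and the linker Nid1 (1.40). Lamc1 ranged from 227 to 409 CPM against 82.9 to 116 CPM. Called lower were Col4a3, Col4a5 and Col4a6, minor chains of type IV collagen, at -1.43, -1.01 and -1.80, and Lamc3, the laminin gamma 3 chain, at -4.26. Lamc3 ranged from 3.26 to 8.62 CPM in gated and from 78.1 to 152 CPM in other fibroblasts, the tightest ratio among the 10 genes that led the lower side (-4.67 to -3.98). Among 15 fibrillar and associated collagens, Col12a1 (1.56) and Col5a3 (1.08) were called higher and Col6a6 (-1.32) lower.

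Matricellular genes had the lowest median of the 24 functional lists, -1.12, with 9 of 18 called lower and 2 higher. Matricellular proteins are secreted regulators that bind matrix and growth factors. Ctgf ranged from 771 to 2093 CPM in gated fibroblasts and from 3011 to 6885 CPM in other fibroblasts (-1.98). Thbs1 (-1.67), Postn (-1.27), Tgfbi (-1.28) and Wisp1 (-3.17) were also lower. So was Rspo3 (-2.57), which is a secreted activator of Wnt signaling rather than a matricellular protein. Spp1, osteopontin, had the smallest ratio, -6.83, but ranged from 0 to 35.1 CPM in gated fibroblasts, and library 3 showed -0.76. Tnxb, a tenascin of the adventitia, was the leading exception at 272 to 402 CPM against 72.0 to 109 CPM (1.70), followed by Sparcl1 (1.14).

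No small leucine-rich proteoglycan of 11 was called higher and 3 were called lower. Fmod, fibromodulin, which binds collagen fibrils and is abundant in tendon and cartilage, ranged from 2.98 to 11.7 CPM in gated fibroblasts (median 7.15) and from 102 to 414 CPM in other fibroblasts (median 247). After thinning it was found in 0.935% of gated and 24.7% of other fibroblasts, and in 1.25% of leukocyte-marker cells (0.408 to 2.90%), so its share in gated fibroblasts was not read as expression. Prelp (-1.26) and Podn (-1.17) were the others. In the chondrogenic and tendon-like list, 4 of 10 were called lower and none higher, among them Scx, a tendon transcription factor, at 1.06 to 8.98 CPM against 9.56 to 30.9 CPM (-3.27). Sox9, the chondrogenic factor, did not follow, at 211 against 191 CPM.

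Coch, Phex and Colec11 were close to absent. Coch, cochlin, ranged from 0 to 19.5 CPM in gated fibroblasts (median 0.556) and from 26.2 to 162 CPM in other fibroblasts (median 49.9). Ratios of genes with a library at 0 depend on the prior of 0.5 UMI, which gives the wide spread of Coch (-10.0 to -3.05). Ntf3, neurotrophin-3, ranged from 5.31 to 13.3 CPM against 80.3 to 152 CPM (-3.32), and its receptor Ntrk3 from 4.69 to 9.56 CPM against 28.5 to 82.1 CPM (-3.09). This ligand and its receptor were thus low in the same cells. Smoc1 (-3.49), Ano2 (-4.18), Cpz (-3.55) and Ucma (-3.97) completed the lower leaders.

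**Figure D4:**
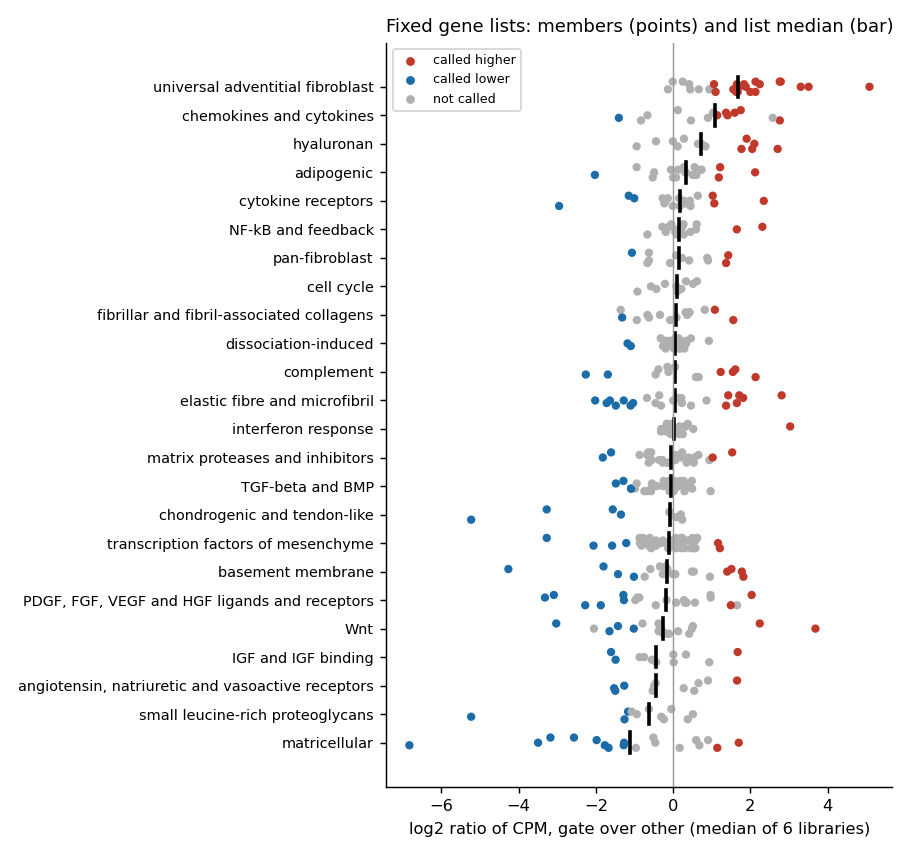
Median log2 ratio of CPM over 6 libraries (x axis) of each counted member of the 24 functional gene lists (y axis), coloured by call, with a black bar at the list median. The universal adventitial list lies furthest to the right, at a median of 1.67, and the matricellular list furthest to the left, at -1.12.

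In a joint list of TGF-beta and BMP genes, 4 were called lower and 0 higher of 37 counted, with a median of -0.06. The LDS mice carry an allele of Tgfbr1, a TGF-beta receptor, so this list is wider than the pathway changed in them. TGF-beta ligands signal through the receptor kinases Tgfbr2 and Tgfbr1 to SMAD proteins. Tgfbr1 stood at 51.8 CPM in gated and 42.6 CPM in other fibroblasts and was higher in 4 of 6 libraries (0.32). Tgfbr2 was higher in all 6 libraries (0.41), as was the coreceptor Tgfbr3 (0.49), with ratios under the 2-fold limit. Bmp4 ranged from 18.1 to 42.3 CPM against 78.3 to 102 CPM (-1.48). Gdf15 (-1.29) and the feedback genes Smad6 and Id4 (both -1.09) were also called lower. Tgfbr1, Tgfbr2 and Tgfbr3 were not among the genes called lower.

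Other growth factor systems were mixed. Of 21 counted ligands and receptors of the PDGF, FGF, VEGF and HGF list, 2 were called higher, among them Fgf18 (2.03), and 6 lower. Pdgfra, the fibroblast PDGF receptor, was near equal (264 against 244 CPM) and Pdgfrb, which pericytes and smooth muscle also use, was lower (54.8 against 117 CPM, -1.29). Within 11 members of the IGF list, Igfbp6 was called higher and Igfbp3 (-1.49) and Htra1 (-1.61) lower. Among 11 vasoactive genes, S1pr3 (1.66) was called higher and Ace (-1.26), Ednra (-1.50) and Enpep (-1.53) lower. Among 26 matrix proteases and inhibitors, Adamts5 (1.53) and Htra3 (1.02) were higher and Mmp3 (-1.82) and Htra1 lower.

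Of 49 counted genes in a list of mesenchymal transcription factors, 2 were called higher and 4 lower. Ebf1, a relative of the gate gene Ebf2, ranged from 617 to 858 CPM against 272 to 371 CPM, without overlap (1.21). Tcf21, a factor of epicardial and adventitial lineages, ranged from 416 to 898 CPM against 183 to 435 CPM, with slight overlap (1.16). Called lower were Nr2f2 (COUP-TFII) at 77.6 to 149 CPM against 233 to 669 CPM (-2.06), Foxc2 (-1.58), Hoxb2 (-1.21) and Scx. Transcription factors outside this list were called too. Among them, Hey2 (-2.56), Heyl (-1.58) and Hey1 (-1.28) were lower and Creb5 (1.34) and Zfhx4 (1.05) higher. Gata4, a cardiac and outflow tract factor, differed little from other fibroblasts as a whole (-0.14, higher in 2 of 6 libraries). Its UMIs were found in 7.22% of gated and 7.05% of other fibroblasts after thinning, against 0.251% of leukocyte-marker cells.

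In the adipogenic list, Aldh1a3, which makes retinoic acid, was higher at 46.9 to 142 CPM against 5.84 to 28.1 CPM (2.12), as were Lepr, the leptin receptor (1.22), and Ptgs2 (1.18), with Fmo2 lower (-2.02), out of 20. The adipocyte markers Adipoq, Plin1, Cidec, Car3, Lep and Retn summed to a median of 4.75 CPM, with Lep and Retn at 0 UMIs in gated fibroblasts. No cell cycle gene of 10 was called.

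Sets of other fibroblasts were also taken by the negative genes of the gate. Hhip-side fibroblasts (2476 cells) held a UMI of at least 3 of Hhip, Pex5l, Dio2, Cpxm2 and Hsd11b1. Cartilage-side fibroblasts (464 cells) held a UMI of at least 2 of Chad, Comp and Cilp2. Both sets held at most 2 positive genes. They were not exclusive, since 84 cells belonged to both. Of the 192 genes called higher, 189 were above the Hhip side and 169 above the cartilage side in all 6 libraries. Of the 260 called lower, 219 and 176 were below them. Since these sets were part of the other fibroblasts, such counts follow in part from the calls.

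The levels themselves showed where single genes differed. Pi16 had a median of 3964 CPM in gated, 1243 CPM in Hhip-side and 372 CPM in cartilage-side fibroblasts. Eln transcripts were found in 29.6% of thinned gated, 77.2% of Hhip-side and 37.8% of cartilage-side fibroblasts. Spp1 and Clu were mainly cartilage-side, at 2056 and 2451 CPM there and 16.9 and 284 CPM on the Hhip side. Ntf3, Nr2f2 and Lox were highest on the Hhip side, at 177, 756 and 234 CPM. Gata4 differed between these sets although not in the pooled comparison, since a UMI was found in 16.2% of gated and 20.0% of cartilage-side but 1.90% of Hhip-side fibroblasts. After thinning, the values were 7.22%, 8.73% and 0.705%. Its median log2 ratio of gated over Hhip-side fibroblasts was 3.48, above 0 in 6 of 6 libraries.

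Levels moved in steps with the number of positive genes. In cells with 0, 3, 4 and 7 positive genes and at most 2 negative genes, Pi16 had a median of 480, 1529, 2709 and 4301 CPM. Dpp4 had 0.218, 2.71, 9.25 and 53.1 CPM, and Uap1 106, 284, 556 and 2152 CPM. Fmod had 179, 30.6, 12.2 and 0 CPM. The cells just outside the threshold (1329 cells with 3 positive genes) and just inside it (1149 cells with 4) differed by a log2 ratio of 0.89 for Pi16, 1.78 for Dpp4 and -1.33 for Fmod. The threshold therefore cut a gradient rather than a gap for these genes. Coch had a sharper step, from 37.1 CPM with 3 positive genes to 0.942 CPM with 4 (log2 ratio -4.29). Median UMIs per cell rose along the same axis, from 4827 with 0 positive genes to 8160 with 7, and the part of depth in the gradient was not tested. Cells with 7 positive genes were counted in 3 libraries, those with at least 20 such cells.

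**Figure D5:**
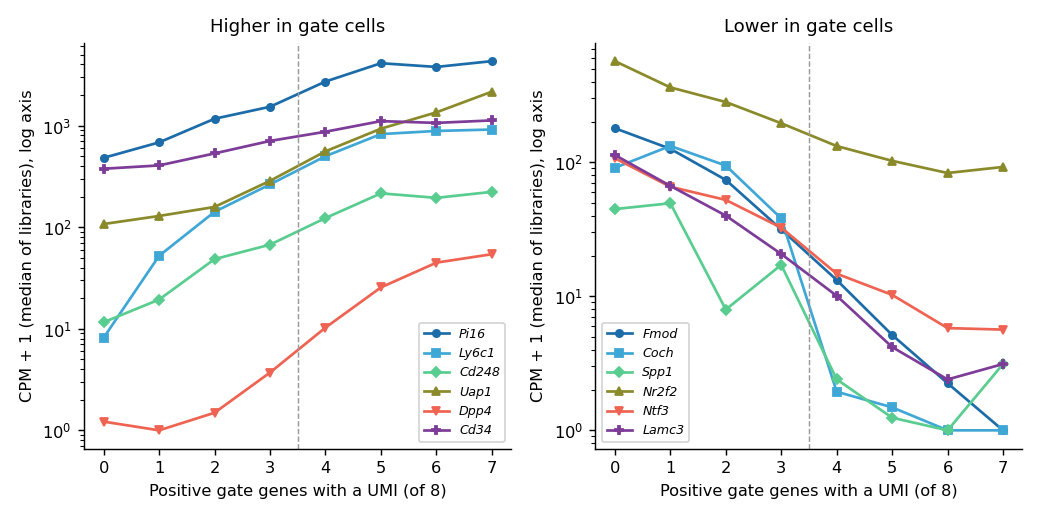
Median CPM plus 1 over libraries (y axis, log scale) of 6 genes called higher (left) and 6 called lower (right) in cells with 0 to 7 positive gate genes and at most 2 negative ones (x axis), with the threshold of the gate as a dashed line. Pi16 goes from 480 to 4301 CPM and Fmod from 179 to 0 CPM.

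Gated fibroblasts also varied among themselves. Has1, Tnfaip6 and Gfpt2, the 3 hyaluronan genes of the gate, were all present in 621 gated cells of 5000 to 10000 UMIs, while 333 such cells held 0 or 1 of them. This split was chosen after the data were seen, and library 6 was left out of it for want of cells. Over the other 5 libraries, 32 of 7957 counted genes were called higher with all 3 genes (0.402%) and 41 lower (0.515%). Thbs1 led the higher genes at 77.7 against 12.1 CPM (2.57), and Ccl7 (1.78), Has2 (1.51), Nfkbiz (1.24), Mt2 (1.24) and Uap1 (1.06) were among them. Nr4a3 (1.94) and Nr4a2 (1.40), immediate early genes that dissociation can also induce, were higher too, and the dissociation list had a median of 0.17 beside -0.09 for all counted genes. Gdf10 (-1.80), Id1 (-1.30), Angptl4 (-1.19) and Wnt5a (-1.16) were among the lower genes. None of the 25 universal adventitial genes was called in either direction, with a list median of -0.10. Cells with 0 or 1 of the 3 genes entered the gate by at least 3 of its other 5 positive genes, so the gate itself bears on this contrast, and the values are a description.

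Markers of other cell types were summed in each library, and their sums did not all go the same way. Smooth muscle markers summed to a median of 821 CPM in gated fibroblasts (605 to 1733) and 1757 CPM in other fibroblasts (1272 to 2957), and pericyte markers, with Higd1b at 0, to 110 CPM (77.5 to 148) and 337 CPM (267 to 530). Kcnj8 and Abcc9, the pericyte channel subunits, were called lower, at -1.60 and -1.49. Leukocyte markers summed to 8.76 CPM (3.00 to 29.0) and 8.59 CPM (3.55 to 27.2), endothelial markers to 40.0 CPM (26.6 to 74.2) and 56.2 CPM (37.4 to 123), and glial markers to 44.3 CPM (34.9 to 54.2) and 66.3 CPM (57.2 to 85.6). Valve interstitial markers summed to 122 CPM (89.4 to 180) and 351 CPM (234 to 686). Mesothelial and cardiomyocyte markers had higher sums in gated fibroblasts. Mesothelial markers summed to 4.26 CPM (3.25 to 12.4) against 1.03 CPM (0.508 to 1.67), with all 9 under 10 CPM and Muc16 at 0. Cardiomyocyte markers summed to 31.7 CPM (23.3 to 70.1) against 14.5 CPM (6.42 to 30.9). Without cells holding several markers of endothelium, leukocytes, glia or mesothelium, 199 genes were called higher and 266 lower. The part of other cell types in the results was otherwise not tested. Dissociation-induced transcripts were near equal, at 25267 CPM (18951 to 31672) against 24562 CPM (19982 to 32526), and of the 25 genes Hspa1a and Hspa1b, near-identical heat shock genes, were called, both lower.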

How the data were processed

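Cells from the aortas of 6 mice were profiled with 10x 3' v3 chemistry. The authors deposited 1 filtered matrix of UMI counts, aligned to mm10 with Cell Ranger 6 by the submitters' notes, while the matrix header names cellranger 4.0.0. Its 30716 barcodes and 31055 features were read as deposited. Cells with 1000 to 5000 genes, 1500 to 25000 UMIs and under 20% mitochondrial UMIs were kept, with no further doublet removal. The gate, the members and the 33 gene lists (24 functional, 9 of cell markers) were chosen with earlier results of these data known.

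UMI counts were summed per library over gated and other fibroblasts, and log2 ratios of CPM were taken within each library with a prior of 0.5 UMI scaled to the sums. Genes with a mean of at least 10 CPM over the 12 sums were counted, leaving out the genes read by the gate and the added GFP and Sm3_intact sequences. No test was run, since the gate was cut from the same cells, and genotypes were not compared, since no barcode number could be paired with a mouse. Intervals are exact binomial ones and cover counting error only. Thinned values used 3000 UMIs per cell and left out shallower cells.

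Genes were picked for naming by a rule, and the text names many of them but not all. The rule took the 15 largest and 10 smallest median ratios among called genes other than predicted ones. It also took the 2 largest and 2 smallest of each functional list and called members of the pan-fibroblast and adventitial lists. Of the markers of other cells, it took the 2 most abundant of each list. Among the genes left out of the text are Krt19 (3.95), Cmah (3.18) and Pde8a (3.06). Further list members, the neighbours on chromosome 1, the genes of the split within the gate and Gata4 were named after their values were seen. Alternatives covered the gate threshold, thinning, depth, filters, TMM scaling and leaving out each library. The ratio and call steps were tested on simulated data. Python 3.11.15, NumPy 2.4.6, SciPy 1.17.1, pandas 2.3.3, Scanpy 1.11.5, Matplotlib 3.10.9, R 4.3.3 and edgeR 4.0.16 (TMM factors only) were used. Some results are not reported here.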

Additional observations from a re-analysis of the deposited data

Results flagged for a closer look

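Among 129 sets of 6 ratios, 9 had a library that stood apart from the other 5, measured by its gap to the nearest value over the whole range, and chance marks about 1 set in 20. Library 6, the library with the fewest gated fibroblasts, stood apart in 5 of them. Its log2 ratio was 1.58 for Cd34 (others 1.02 to 1.15), 1.56 for Cdkn1c, a cell cycle inhibitor (0.41 to 0.73), 2.89 for Sema3c (1.81 to 2.13), -0.92 for Limch1 (-0.37 to -0.07) and -4.99 for Smoc1 (-3.67 to -3.01). Library 2 stood apart with weaker ratios for Fmo2 (-1.04, others -2.21 to -1.87) and Htra1 (-0.75, others -1.71 to -1.51). Library 1 stood apart for Lama4 (2.34, others 1.71 to 1.92) and library 3 for Ccnd2, a cyclin (-1.05, others -0.66 to -0.52). The direction of each ratio was shared by all 6 libraries, and no library could be tied to a genotype.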

How the results depend on the processing

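No paired analysis was possible between mice because no column carries a replicate number, while all ratios were already taken within a library. The median share of gated fibroblasts, 20.1%, became 30.8% with at least 3 positive genes and 10.7% with a gate read from cells thinned to 3000 UMIs, as a looser or stricter gate must move it. The counts of 192 genes called higher and 260 lower became 78 and 103 with a minimum of 50 CPM, 353 and 714 with a minimum of 1 CPM, and 443 and 488 with a limit of 1.5-fold. Under other settings they stayed between 181 and 252 higher and between 210 and 296 lower. Leaving out each library gave shares of 19.8 to 20.4%, 187 to 208 genes higher and 254 to 270 lower. Of 2886 values of named genes under alternatives, 2807 moved by less than the spread between libraries, and of 552 list medians 524 did. Settings that changed only the minimum CPM left each named-gene ratio as it was, so the 2807 hold values that could not move. Calls of named genes were lost most often with at least 3 positive genes (85 of 95 remained), at 5000 to 10000 UMIs (86 of 92) and in cells with a dissociation share under the median (87 of 94). In that last setting, 71.0% of the 252 higher and 74.7% of the 296 lower genes were also called without it. No value changed sign among those called. Leaving out libraries 5 and 6 (186 and 258 genes) or cells with shared barcode sequences (190 and 260 genes) was chosen after seeing the data. Library 6, with 91 gated fibroblasts, limits the precision of every ratio, and genes near 0 CPM in either set depend on the prior.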

Other observations

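Wnt2, the gene named in the Wnt2CRE allele, had a UMI in 11.2% of gated fibroblasts, 3.31% of other fibroblasts and 0.207% of leukocyte-marker cells. After thinning, the shares were 5.80%, 1.62% and 0.251%. The paper describes this Cre as specific to the cardiac neural crest, and whether Wnt2 transcript bears on the tracer was not tested. In libraries 1 to 4, the tracer GFP was found in 1.40% of gated fibroblasts, 2.78% of other fibroblasts, 7.86% of cells with high Myh11 and low Dcn and 0.888% of leukocyte-marker cells. After thinning, gated fibroblasts held GFP in 0.498% (95% exact binomial interval 0.239 to 0.914%) and leukocyte-marker cells in 0.719% (2 of 278 cells, 0.0872 to 2.57%), so these cells cannot place GFP in gated fibroblasts above or below free RNA. The added sequence Sm3_intact had 0 UMIs in every library.

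Pairs of neighbouring genes were also called lower together. Ano2 and Ntf3 on chromosome 6 had log2 ratios of -4.18 and -3.32, Kcnj8 and Abcc9, also on chromosome 6, -1.60 and -1.49, Prelp and Fmod on chromosome 1 -1.26 and -5.23, and Col4a6 and Col4a5 on chromosome X -1.80 and -1.01.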
